A study of Mus musculus with 7 samples.

Results

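The IFITM proteins (interferon-induced transmembrane proteins) are small membrane proteins of the CD225 family. In mouse and human, the classical members IFITM1, IFITM2 and IFITM3 are switched on by type I and type II interferon and hinder the fusion of enveloped viruses with cell and endosomal membranes. Stem cells of several tissues are known to keep some interferon-stimulated genes, IFITM genes among them, active without infection. The genes were Ifitm1, Ifitm2, Ifitm3 and Ifitm10, taken by symbol from the gene table of a mouse stem cell RNA-sequencing study. Of these 4 genes, 3 were among the 19649 genes of the table. Ifitm10, a more distant relative not known as an interferon-stimulated gene, is not analysed here. A further 3 genes of the family, Ifitm5, Ifitm6 and Ifitm7, had rows of their own and are given beside them, so 6 Ifitm genes are described in all. The family was selected on its normalized counts in these same mutant and wild-type libraries, so the differences between the genotypes in these genes are a description and carry no p-value.

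The mutant group held 3 libraries of the genotype Calr fl/fl (Calr del52/del52) with the MxCre transgene. The wild-type group held 4 libraries of Calr +/+ mice that also carried MxCre. Calr del52 is the frameshifting deletion of the calreticulin gene found in myeloproliferative neoplasms. MxCre is a Cre recombinase driven by the interferon-responsive Mx1 promoter, and mice of both genotypes received pI:pC, a double-stranded RNA mimic that raises interferon. An inducer of the gene family studied here was therefore given to mutant and wild-type mice alike. Long-term haematopoietic stem cells were sorted 14 days after induction began as lineage-negative, Kit-positive and Sca-1-positive cells with CD150 and without CD48. Libraries without pI:pC, which would show the levels before induction, are not analysed here. Whether each library came from a separate mouse is not stated, so the spread between libraries may in part be technical.

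The libraries held between 21325340 and 28710304 reads in genes. Among transcripts of the sort markers, Kit had normalized counts of 4736, 6677 and 2976 in mutant libraries, against 4150, 4068, 26511 and 25305 in wild-type 1 to 4, so wild-type 3 and 4 stood several times above all others. Ly6a (Sca-1) had 4956, 4207 and 6262 in mutant libraries, against 4838, 6363, 2323 and 2407 in wild-type libraries, and was lowest in wild-type 3 and 4. Slamf1 (CD150) had between 1416 and 2407 in all libraries. Cd48, the marker sorted against, had normalized counts of 124 to 164 in mutant and 128 to 241 in wild-type libraries. Calr itself had normalized counts of 14239, 15724 and 15317 in mutant libraries, against 18606, 16639, 15922 and 15965 in wild-type libraries. The log2 difference was -0.15, and the exact two-sided permutation test over the 35 splits gave p = 0.0857, where the smallest p possible is 0.0286. A gene-level count cannot show the del52 allele, so it does not check the labels. The wild-type libraries fell into pairs that have to be read apart. Wild-type 3 and 4 share a run of long numbers in their titles with mutant 1 and 2, whereas wild-type 1 and 2 have short numbers and mutant 3 a lettered one; what the numbers stand for is not stated. Between wild-type 3 and 4 and wild-type 1 and 2, 54.9% of 16047 genes tested differed (limma, Benjamini-Hochberg adjusted p under 0.05). For each library, deviations from the mean of all 7 were set against log10 of the bases covered by a gene's annotated exons. The slope was -0.38, 0.03 and -0.58 in mutant libraries. It was -0.33, -0.36, 0.81 and 0.81 in wild-type 1 to 4. Short genes were thus relatively low in wild-type 3 and 4, and the Ifitm genes with many reads are short. Their annotated exons cover 1094 bases for Ifitm1, 655 for Ifitm2 and 678 for Ifitm3.

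All but 1 of the 6 Ifitm genes in the table lie in 1 cluster on mouse chromosome 7 (GRCm38, GENCODE vM21). From one end to the other the cluster holds Ifitm5 (chr7:140948958-140950291, minus strand), Ifitm2 (chr7:140954837-140955987, minus strand), Ifitm1 (chr7:140967221-140969825, plus strand), Ifitm3 (chr7:141009586-141010770, minus strand) and Ifitm6 (chr7:141015699-141017924, minus strand), over 68967 bases. Ifitm7 lies apart, on chromosome 16 (chr16:13981699-13986888, minus strand). The sequences before the transcription start of the 3 abundant members are shown because these genes were high in every library yet differed in how they varied. They come from the RefSeq promoter table (GRCm38.p6), 5′ to 3′ on the gene's strand, and end at the base before the start of the main GENCODE transcript. Capitals mark the core of the interferon-stimulated response element (ISRE), searched as GAAANNGAAA on both strands.

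Ifitm1, chr7:140967826-140968027, plus strand: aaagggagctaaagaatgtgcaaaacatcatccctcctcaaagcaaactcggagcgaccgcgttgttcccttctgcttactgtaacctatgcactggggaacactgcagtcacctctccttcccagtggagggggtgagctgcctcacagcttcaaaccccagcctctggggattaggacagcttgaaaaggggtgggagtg

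Ifitm2, chr7:140955988-140956211, minus strand: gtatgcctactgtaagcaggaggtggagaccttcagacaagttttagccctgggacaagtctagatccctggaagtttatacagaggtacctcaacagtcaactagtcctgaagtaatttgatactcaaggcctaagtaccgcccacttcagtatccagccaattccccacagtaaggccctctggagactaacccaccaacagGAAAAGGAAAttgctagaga

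Ifitm3, chr7:141010771-141010994, minus strand: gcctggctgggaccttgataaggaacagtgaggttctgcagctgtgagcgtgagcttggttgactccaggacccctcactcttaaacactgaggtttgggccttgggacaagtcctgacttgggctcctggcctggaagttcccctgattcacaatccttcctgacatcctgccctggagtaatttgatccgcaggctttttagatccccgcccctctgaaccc

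Ifitm3, chr7:141010716-141010745, minus strand, inside the transcript: cagGAAAAGGAAActtctgaGAAACCGAAA

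The ISRE core, bound by interferon regulatory factors, had 1 match in the Ifitm2 window and 2 in the Ifitm3 window, and none in the windows of Ifitm1, Ifitm5, Ifitm6 and Ifitm7. The Ifitm2 match began 46 bases upstream of the RefSeq start. Both Ifitm3 matches lay in the short stretch printed last, and the first of them begins 28 bases after the start of the GENCODE transcript. The ISRE core occurred in 1131 of 32851 RefSeq promoter windows of 300 bases, which is 3.44%. The gamma-activated sequence, an element of interferon-gamma responses, was searched as TTCNNNGAA on both strands and occurred in 8.30% of the windows. It had 1 match in the Ifitm3 window, which overlaps the second ISRE core, and 1 in the Ifitm6 window. A match of letters is not a bound site, and a window without one says only that these letters are not in it.

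Ifitm1 was the member in which the mutant libraries stood apart. Its normalized counts were 37962, 27133 and 44096 in mutant 1 to 3, against 20744, 20218, 9354 and 15748 in wild-type 1 to 4. Every mutant library lay above every wild-type library, and the lowest mutant value was 1.31 times the highest wild-type value. The means were 36397 ± 8589 in mutant (SD, n = 3) and 16516 ± 5275 in wild-type libraries (SD, n = 4), a log2 difference of 1.18 with a standard error of 0.31. Over all 16047 genes tested in that comparison, 0 genes or 0.0% passed an adjusted p of 0.05 (limma; 1365 genes passed unadjusted, and edgeR's quasi-likelihood test also called 0, with 1639 unadjusted), and 5.23% were higher in the mutant libraries with no overlap of the groups. DESeq2 called 107 genes. Among all genes tested, 225 had a larger difference than Ifitm1. Mitochondrial genes took 1.11, 0.683 and 1.17% of reads in mutant 1 to 3, against 0.681, 0.711, 0.363 and 0.412% in wild-type 1 to 4, so mutant 1 and 3 were highest and wild-type 3 and 4 lowest, as in Ifitm1. The part of this in the Ifitm1 difference was not tested. In bulk RNA, more cells of a type that expresses Ifitm1 and more Ifitm1 RNA per cell cannot be told apart.

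Ifitm2 and Ifitm3 followed the wild-type pairs more than the genotype. Ifitm2 had normalized counts of 18282, 13664 and 24020 in mutant 1 to 3, against 17030, 17334, 8153 and 8601 in wild-type 1 to 4. The groups overlapped: mutant 2 lay below wild-type 1 and 2, and all mutant libraries lay above wild-type 3 and 4. The means were 18656 ± 5188 in mutant (SD, n = 3) and 12779 ± 5088 in wild-type libraries (SD, n = 4), a log2 difference of 0.60 with a standard error of 0.34. Ifitm3, the member best known for restricting influenza virus, had normalized counts of 25194, 19591 and 37613 in mutant 1 to 3, against 23821, 26428, 8554 and 10556 in wild-type 1 to 4. Here mutant 2 lay below wild-type 1 and 2, mutant 1 between those, and mutant 3 above all others. The means were 27466 ± 9223 in mutant (SD, n = 3) and 17340 ± 9089 in wild-type libraries (SD, n = 4), a log2 difference of 0.78 with a standard error of 0.44. In all 3 members mutant 2 was the lowest mutant library and mutant 3 the highest.

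**Figure D1:**
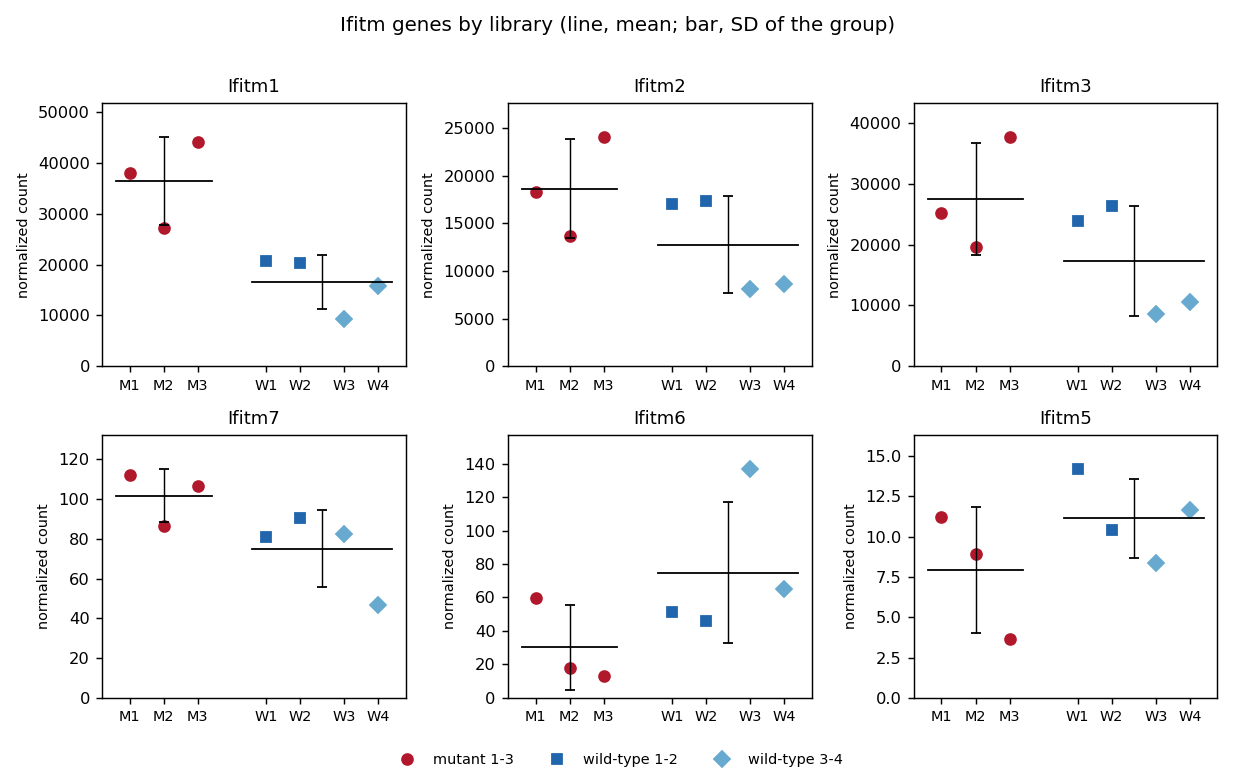
Normalized counts (vertical axis, linear from 0) of the 6 Ifitm genes in mutant 1 to 3 (M1 to M3) and wild-type 1 to 4 (W1 to W4). Each point is 1 library, horizontal lines are group means and bars are 1 SD. Ifitm1 is the gene in which all mutant points lie above all wild-type points, while for Ifitm2 and Ifitm3 the points of wild-type 1 and 2 lie among the mutant points.

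Set against each wild-type pair on its own, the members separated. Against wild-type 1 and 2, Ifitm1 was 0.80 higher on the log2 scale in the mutant libraries (SE 0.22), whereas the differences of Ifitm2 (0.08, SE 0.23) and Ifitm3 (0.08, SE 0.25) were smaller than their standard errors. In that comparison 0.318% of genes were called, 833 of 16047 genes had a larger difference than Ifitm1 and 6326 had a larger one than Ifitm2. The small differences of Ifitm2 and Ifitm3 rested on mutant 3: without it they were -0.12 and -0.18. With quantile normalization that of Ifitm3 was -0.080. Against wild-type 3 and 4, all 3 members were higher in the mutant libraries, by 1.56 for Ifitm1 (SE 0.27), 1.12 for Ifitm2 (SE 0.23) and 1.48 for Ifitm3 (SE 0.26). There 42.6% of all genes were called, 19.7% as higher and 22.8% as lower, and 272 of 16047 genes had a larger difference than Ifitm1, 339 than Ifitm3 and 1139 than Ifitm2. The 2 comparisons share the mutant libraries.

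Ifitm1 had the largest and Ifitm2 the smallest of the 3 differences also when the libraries were divided by their titles. Mutant 1 and 2 minus wild-type 3 and 4 gave log2 differences of 1.40 for Ifitm1, 0.92 for Ifitm2 and 1.23 for Ifitm3, in a comparison that called 37.5% of genes. Mutant 3 minus wild-type 1 and 2 gave 1.11 for Ifitm1, 0.48 for Ifitm2 and 0.58 for Ifitm3, where 6.37% of genes were called; mutant 3 is a single library there, is assumed to vary like the others, and has a title unlike those of wild-type 1 and 2. With the shared run of titles against all other titles as a covariate over all 7 libraries, the differences were 1.28 for Ifitm1, 0.74 for Ifitm2 and 0.97 for Ifitm3. With the length slope of each library as a covariate, Ifitm1 was 0.79 higher in the mutant libraries (SE 0.18), while Ifitm2 (0.08, SE 0.10) and Ifitm3 (0.10, SE 0.13) again differed by less than their standard errors. The genotype and the length slope are only partly separate in these libraries, since both libraries with the steepest positive slopes are wild-type.

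**Figure D2:**
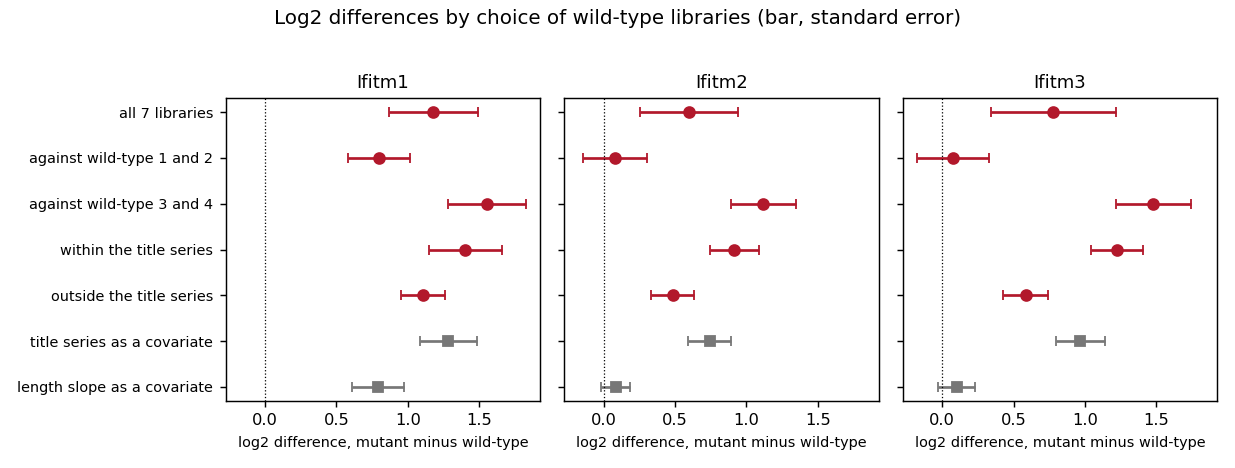
Log2 differences, mutant minus wild-type (horizontal axis), of Ifitm1, Ifitm2 and Ifitm3 under different choices of libraries (red circles) and with a covariate added (grey squares). Bars are standard errors and the dotted line marks no difference. Ifitm1 lies right of the line in every row, whereas Ifitm2 and Ifitm3 lie on it against wild-type 1 and 2 and with the length slope as a covariate.

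The wild-type pairs differed in all 3 abundant members. These values too are a description, since the same counts chose the genes. Wild-type 3 and 4 were lower than wild-type 1 and 2 by a log2 difference of -1.40 for Ifitm3 (SE 0.13), -1.04 for Ifitm2 (SE 0.10) and -0.75 for Ifitm1 (SE 0.20). Of all genes, 54.9% were called in either direction in that comparison and 25.3% as lower. Ifitm3 was near the end of the distribution, with 490 of 16047 genes lower still, while 3073 genes were lower than Ifitm1. The Ifitm1 difference rested on wild-type 3 and was -0.38 without it, against -1.13 without wild-type 4. Wild-type 4, at 15748, held more Ifitm1 than wild-type 3, at 9354, whereas the pair differed little in Ifitm2. The part of the length slope in these differences was not tested.

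Per length, the 3 members were among the most abundant of the genes that have FPKM values. In FPKM (fragments scaled to transcript length and sequencing depth), summed over the transcripts of a gene, Ifitm1 had 2475, 1727 and 2901 in mutant 1 to 3, against 1318, 1321, 605 and 1037 in wild-type 1 to 4. Ranks are among the 10950 genes with FPKM values, fewer than the 19649 of the gene table. Ifitm1 stood at ranks 13, 11 and 13 in mutant 1 to 3, and at ranks 26, 27, 53 and 25 in wild-type 1 to 4. The ranks of Ifitm2 ran over 29 to 43 in mutant and 28 to 52 in wild-type libraries, and those of Ifitm3 over 21 to 34 in mutant and 19 to 77 in wild-type libraries. Together the 3 genes took 0.836, 0.689 and 0.945% of the summed FPKM in mutant 1 to 3, against 0.631, 0.665, 0.365 and 0.490% in wild-type 1 to 4. In FPKM the lowest mutant share therefore lay just above the highest wild-type share. Of the reads in genes, they took 0.336, 0.250 and 0.410% in mutant 1 to 3. Wild-type 1 to 4 had 0.250, 0.268, 0.109 and 0.147%, so in reads the groups overlapped through mutant 2.

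Levels of the members were compared within each library in FPKM, over both genotypes together. The FPKM come from the same libraries that chose the genes, so their order is a description without p-values. By mean log2 FPKM over the 7 libraries the order was Ifitm1, Ifitm3, Ifitm2, Ifitm7 and Ifitm6, and Ifitm5 had no row in the FPKM table. Ifitm1 exceeded Ifitm3 by a mean of 0.39 on the log2 scale (SD 0.39), in 5 of 7 libraries. Ifitm3 exceeded Ifitm2 by a mean of 0.05 (SD 0.19), also in 5 of 7 libraries. The order of the abundant members was thus not the same in every library. The ratio of Ifitm1 to Ifitm3 was 1.73, 1.59 and 1.34 in mutant 1 to 3, against 0.99, 0.87, 1.25 and 1.71 in wild-type 1 to 4. The pooled order of these members thus mixes the genotypes, whose comparison was used to choose the genes. Ifitm2 exceeded Ifitm7 by a mean of 7.89 (SD 0.20) in 7 of 7 libraries. Reads divided by all annotated exon bases gave another order, with Ifitm1 below Ifitm3 by a log2 difference of -0.49. That divisor counts every exon of Ifitm1, although its main transcript has 560 bases. Those reads come from the counts that chose the genes, so this order carries no p-value.

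The balance within the family also differed between the libraries. Ifitm1 made up 46.9, 45.5 and 42.2% of the FPKM of the 3 members in mutant 1 to 3, against 33.6, 31.8, 35.7 and 45.4% in wild-type 1 to 4. Wild-type 4 lay among the mutant libraries and the other wild-type libraries below them. The share of Ifitm2 was 26.0, 26.0 and 26.4% in mutant 1 to 3, against 32.4, 31.6, 35.7 and 28.1% in wild-type 1 to 4, so all mutant libraries lay below all wild-type libraries. The ratio of Ifitm1 to Ifitm2 was 1.81, 1.75 and 1.59 in mutant 1 to 3, against 1.04, 1.0, 1.0 and 1.61 in wild-type 1 to 4. A ratio within a library shows unequal change and not which gene moved. Wild-type 4 reached the mutant range, and wild-type 1 to 3 lay well below it. The ratio of Ifitm3 to Ifitm2 ran over 1.04 to 1.19 in mutant and 0.80 to 1.16 in wild-type libraries, and the groups overlapped.

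**Figure D3:**
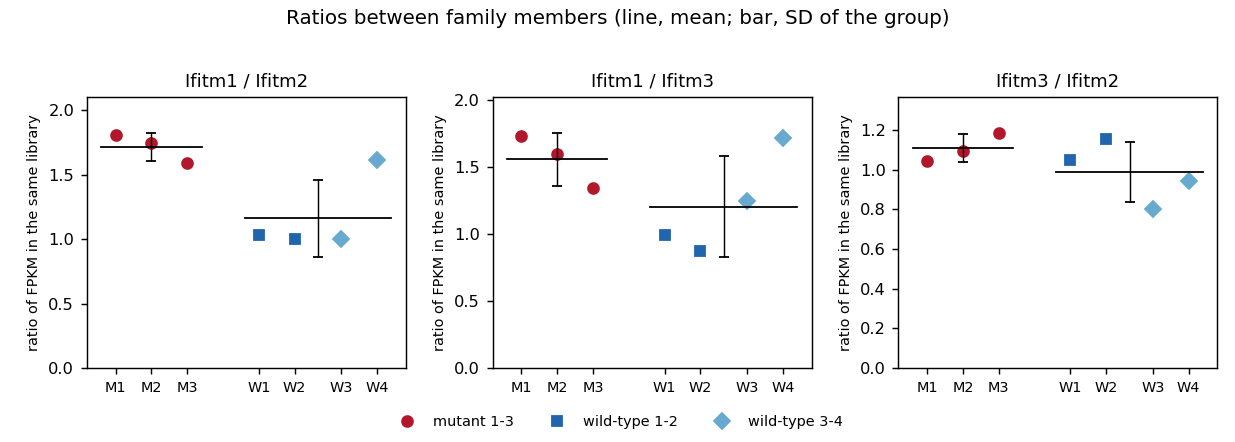
Ratios of FPKM between family members in the same library (vertical axis, linear from 0), for mutant 1 to 3 (M1 to M3) and wild-type 1 to 4 (W1 to W4), with group means and 1 SD. The ratio of Ifitm1 to Ifitm2 is 1.59 to 1.81 in mutant libraries and near 1.0 in wild-type 1 to 3, and wild-type 4 is at 1.61.

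The transcripts of Ifitm1 moved alike. Ifitm1-202, of 560 bases and 3 exons, had 2135, 1483 and 2480 FPKM in mutant 1 to 3, against 1093, 1095, 499 and 894 FPKM in wild-type 1 to 4. Ifitm1-201, of 736 bases and 2 exons, had 340, 244 and 421 FPKM in mutant 1 to 3, against 225, 226, 106 and 142 FPKM in wild-type 1 to 4. The log2 differences were 1.22 (SE 0.39) and 0.97 (SE 0.34). Both transcripts divide the reads of the same gene, so they are not separate observations. Of 30156 transcripts tested, 0 or 0.0% passed the adjusted threshold in limma, with 2077 at an unadjusted p under 0.05. Ifitm1-203, whose first exon lies farther upstream, was at most 0.45 FPKM in any library. Ifitm1-202 supplied 86.3, 85.9 and 85.5% of the Ifitm1 FPKM in mutant 1 to 3, against 82.9, 82.9, 82.5 and 86.2% in wild-type 1 to 4. Ifitm2 and Ifitm3 were each listed with 1 transcript.

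The members resemble each other in sequence, which bears on how reads were shared. Their main transcripts were 74.4% identical over the aligned bases for Ifitm1 and Ifitm2, 76.4% for Ifitm1 and Ifitm3, and 76.4% for Ifitm2 and Ifitm3. The longest identical runs were 40, 64 and 69 bases. Of the stretches of 50 bases in their exons, Ifitm1 and Ifitm3 shared 15, Ifitm2 and Ifitm3 shared 20, and Ifitm1 and Ifitm2 shared none. Reads from the shared stretches are uncertain. Ifitm2 overlaps the annotated read-through gene Gm45717 on the same strand, which holds 36.1% of its stretches, so the Ifitm2 count is the least certain of the 3 members. The processed pseudogenes Gm7676, Gm11951, Gm45308 and Gm8865 share stretches with the members, among them 14.9% of those of Ifitm2 for Gm11951 and 12.4% for Gm8865. They had at most 36.2 normalized counts in any library.

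The other 3 Ifitm genes had few reads. Ifitm7 had normalized counts of 112, 86.6 and 106 in mutant 1 to 3, against 80.8, 90.4, 82.6 and 46.6 in wild-type 1 to 4, and the groups overlapped through mutant 2. Ifitm5, known from osteoblasts and bone mineralization, had 11.2, 8.93 and 3.62 normalized counts in mutant 1 to 3, against 14.2, 10.4, 8.34 and 11.6 in wild-type 1 to 4. It rested on 3 to 14 reads per library, and a difference was not detectable at this depth. Ifitm6 ran the other way from Ifitm1, with 59.5, 17.9 and 13.3 normalized counts in mutant 1 to 3, against 51.3, 45.7, 136.8 and 64.9 in wild-type 1 to 4. Mutant 2 and 3 lay below all wild-type libraries and mutant 1 among them, a log2 difference of -1.44 (SE 0.58).

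The summed markers of neutrophils and monocytes varied in the same libraries as Ifitm6. Summed over 15 genes, all 15 of which were tested, they reached 50461, 11041 and 13350 normalized counts in mutant 1 to 3, against 52115, 45698, 89830 and 51572 in wild-type 1 to 4. Mutant 2 and 3 were low in both and wild-type 3 was highest in both. Among the markers, 6 were lower in all mutant than in all wild-type libraries, beside 4.34% of all genes. They were Mpo (myeloperoxidase), Ngp, Ltf (lactoferrin), Lcn2, Ly6c2 and F13a1. Over all libraries 12 of the 15 markers had negative log2 differences. Prtn3 (0.55), Cd14 (0.44) and Csf1r (0.39) went the other way. Prtn3 was positive against both wild-type pairs (0.37 and 0.74). Cd14 and Csf1r were at 1.43 and 1.80 against wild-type 1 and 2, and at -0.55 and -1.01 against wild-type 3 and 4. The gene with the pattern nearest to Ifitm6 was Prom1, which encodes CD133, at a root mean square difference of 0.14 log2 units between gene-centred values over the 7 libraries, and next came Orm1 (0.24), an acute phase protein, and Chil1 (0.25). The part of neutrophil and monocyte RNA in the Ifitm6 difference was not tested.

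**Figure D4:**
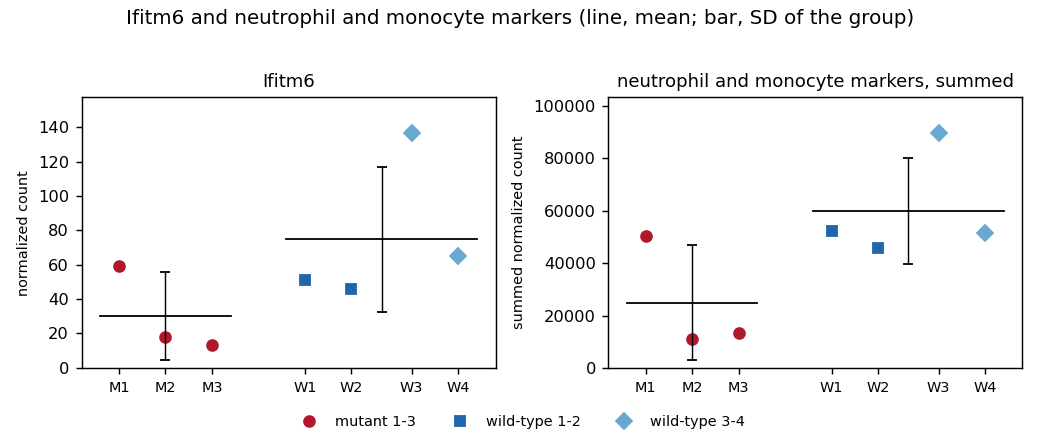
Normalized counts of Ifitm6 (left) and the sum over 15 neutrophil and monocyte markers (right), linear axes from 0, in mutant 1 to 3 (M1 to M3) and wild-type 1 to 4 (W1 to W4), with group means and 1 SD. Mutant 2 and 3 are lowest and wild-type 3 is highest in both panels.

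Marker sums of other cell types are set here beside Ifitm1. The neutrophil and monocyte sum, with mutant 1 near the wild-type libraries and mutant 2 and 3 below them, did not follow the order of the libraries in Ifitm1, where mutant 3 and 1 were highest. Endothelial cells are known to express Ifitm genes. Of 5 endothelial markers in the table, Sox18 (log2 difference 1.16) and Emcn (0.77) were higher in all mutant than in all wild-type libraries. Among all genes tested that share was 5.23%. The others overlapped, which were Kdr (0.26), Tek (-0.66) and Pecam1 (-0.24), and Tek and Pecam1 were highest in wild-type 3 and 4. Against wild-type 1 and 2 the differences were 1.08 for Sox18, 0.52 for Emcn, 1.23 for Kdr, 0.14 for Tek and 0.26 for Pecam1. Against wild-type 3 and 4 they were 1.24, 1.01, -0.70, -1.45 and -0.73 in the same order. The endothelial sum ran over 3586 to 3957 in mutant libraries, against 2968, 2523, 4870 and 5092 in wild-type 1 to 4. Cdh5 and Sox17 are not analysed here. The B cell sum ran over 1301 to 1788 in mutant and 909 to 1609 in wild-type libraries, the T and NK cell sum over 1198 to 1773 in mutant and 868 to 2506 in wild-type libraries, and the erythroid sum over 1616 to 2800 in mutant and 1282 to 4064 in wild-type libraries. Mast cell and basophil markers ran over 98.2 to 231 in mutant and 283 to 473 in wild-type libraries, and megakaryocyte and platelet markers over 20637 to 24916 in mutant and 25647 to 36477 in wild-type libraries. Both sums were lower in every mutant than in any wild-type library. Ear2, a marker of basophils and eosinophils, was at 0 in mutant 2 and 3. The part of any of these cells in the Ifitm1 difference was not tested.

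Most other genes of the interferon pathway overlapped between the genotypes. The 14 receptor and signalling genes, all tested, had a median log2 difference of -0.10, against 0.00 over all genes, and 0 were called by limma, with 1 at an unadjusted p under 0.05. Ifnar2, a chain of the type I interferon receptor, was higher in all mutant libraries with 3064, 2898 and 3159 normalized counts, against 2712, 2823, 2269 and 2457 in wild-type libraries. Irf8, a factor of monocyte and dendritic cell development, was lower in all mutant than in all wild-type libraries (log2 difference -0.45, SE 0.22). Tyk2, a kinase bound to the receptor, had 537, 958 and 546 in mutant libraries, against 701, 720, 2438 and 2403 in wild-type libraries, and here wild-type 3 and 4 stood apart from all the others.

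The antiviral effectors, which are targets of interferon as the Ifitm genes are, overlapped between the genotypes in most cases. Of 46 effectors listed, 44 were in the table and tested, and 0 were called by limma over all 7 libraries, with 5 at an unadjusted p under 0.05. Their median log2 difference was 0.14, being 0.02 against wild-type 1 and 2 and 0.34 against wild-type 3 and 4, beside 0.00 over all genes in each. Against wild-type 3 and 4, 14 effectors were called higher and 4 lower, where 42.6% of all genes were called. Tmem173 was among 2 effectors that were higher in all mutant than in all wild-type libraries, beside 5.23% of all genes. Tmem173 encodes STING, which relays the sensing of cytosolic DNA, and had 3515, 2915 and 3624 in mutant libraries, against 2369, 2512, 2050 and 2251 in wild-type libraries (log2 difference 0.54, SE 0.16). Ifi27 (0.74, SE 0.26) and Xaf1 (0.68, SE 0.28) had larger differences, and in both the groups overlapped through wild-type 2. Rtp4 (0.90) and Ifi27l2a (0.72), chosen after their values were seen, also differed by as much as Ifitm2 or more, and their groups overlapped. Ifit2, which binds viral RNA, differed by -0.51 (SE 0.22). In each of the interferon lists edgeR and DESeq2 also called 0 genes over all libraries.

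The sensors and feedback genes had a median log2 difference of -0.20 over 14 genes, 0.01 against wild-type 1 and 2 and -0.72 against wild-type 3 and 4, and 0 were called by limma over all libraries, with 1 at an unadjusted p under 0.05. Nlrc5, an activator of MHC class I genes, was lower in all mutant libraries with 599, 610 and 618 normalized counts, against 653, 1225, 3310 and 2697 in wild-type libraries. Wild-type 1 was close to the mutant libraries, while wild-type 3 and 4 were several times higher. Ifih1, the sensor MDA5 that binds pI:pC, had 662, 626 and 499 in mutant libraries, against 564, 661, 1072 and 1256 in wild-type libraries. Parp14 (-0.63, SE 0.34) and Dtx3l (-0.65, SE 0.41) were likewise high in wild-type 3 and 4 and overlapped with the mutant libraries in wild-type 1 and 2.

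**Figure D5:**
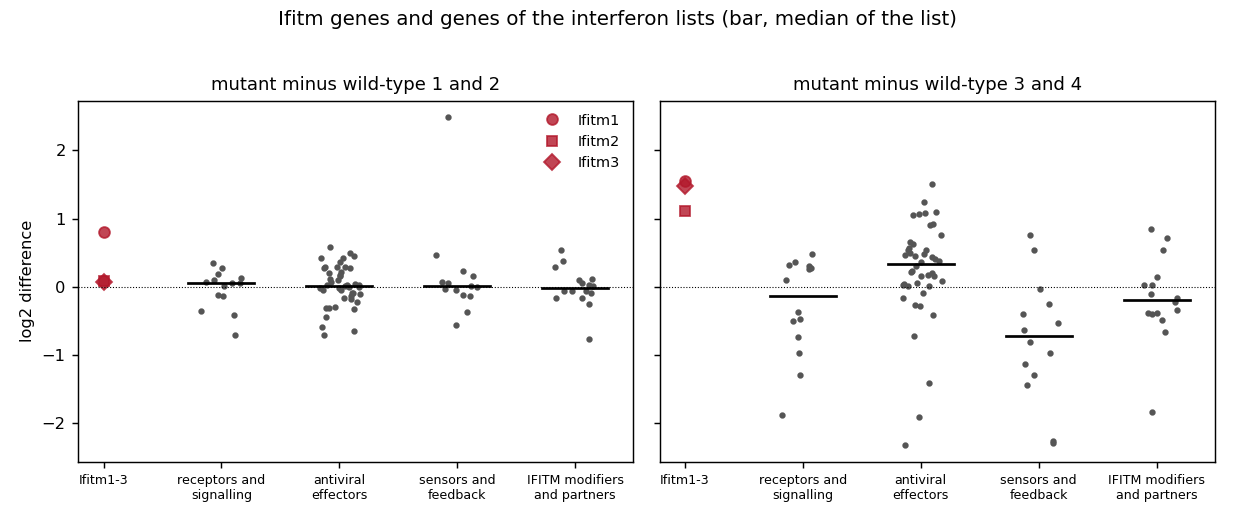
Log2 differences (vertical axis), mutant minus wild-type 1 and 2 (left) and mutant minus wild-type 3 and 4 (right), of Ifitm1, Ifitm2 and Ifitm3 (red) and of the genes in 4 lists (grey points, with the list's median as a bar). Against wild-type 1 and 2 Ifitm1 is at 0.80 and the list medians are near 0, while against wild-type 3 and 4 all 3 Ifitm genes lie at 1.12 to 1.56 and the lists spread in both directions.

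Among genes for proteins that modify or bind IFITM proteins, 16 of 16 were tested, 0 were called by limma, 0 had an unadjusted p under 0.05 and none stood apart, with a median log2 difference of -0.09. Zmpste24, a metalloprotease that acts with IFITM proteins against viruses, differed by -0.20 (SE 0.18), and Vapa, a partner of IFITM3 at contact sites of the endoplasmic reticulum, by 0.33 (SE 0.25). The tetraspanin Cd9 differed by 0.34 (SE 0.32). Of 9 other CD225 domain genes, 3 were tested: Prrt1 (0.12, SE 0.28), Tmem91 (-0.13, SE 0.38) and Prrt2 (-0.06, SE 0.64) overlapped between the groups.

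Among the genes beside the cluster the genotypes overlapped. The 3 nearest tested genes on one side were Gm15542, Psmd13 and Pgghg, with log2 differences of -0.18, 0.13 and -0.42. On the other side they were B4galnt4, Pkp3 and Sigirr, with -0.42, 0.11 and 0.12. Psmd13, a proteasome subunit, had 3710, 3924 and 4529 in mutant libraries, against 5398, 4719, 2674 and 2763 in wild-type libraries. Around the position of Ifitm10, farther along chromosome 7, Tollip, Brsk2, Mob2 and Tnni2 overlapped between the groups. Ctsd (cathepsin D; 0.15, SE 0.14) and Lsp1 (0.40, SE 0.20) were higher in all mutant than in all wild-type libraries. Among all genes tested 5.23% were so, and an effect of the position was not tested.

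The genes with the patterns most like each member differed within the family. Likeness was the root mean square difference between gene-centred log2 values over the 7 libraries. For Ifitm1 they were Tceal3 (0.13), Slfn2 (0.15), Rpl23a-ps3 (0.15), Cd302 (0.16) and S100a4 (0.16). Slfn2, a Schlafen gene that is itself interferon-stimulated, had 3289, 2229 and 4681 normalized counts in mutant libraries, against 1825, 1564, 939 and 1518 in wild-type libraries. For Ifitm2 they were Rpl8 (0.02), Med6 (0.03), Rps6-ps4, Trmt112 and Vkorc1, which include a ribosomal protein gene, a ribosomal pseudogene and a Mediator subunit. Rpl8 had 21667, 16830 and 28787 in mutant libraries, against 20705, 20433, 9575 and 10419 in wild-type libraries. For Ifitm3 they were Trmt112-ps2 (0.07), 1810044D09Rik, Snrpg, Tomm5 and Rpl41 (0.09). Within the family, Ifitm2 and Ifitm3 were 0.18 apart and Ifitm1 was 0.36 from Ifitm2 and 0.35 from Ifitm3. Measured from Ifitm1, its nearest relative in pattern, Ifitm3, ranked 440 among 16046 genes.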

How the data were processed

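The members and gene lists were chosen with earlier results of these data known. The authors' tools on GRCm38, per the submitters' processing notes, include STAR 2.7.3a, DESeq2 1.12.4, HTSeq 0.6.1, FastQC 0.11.7 and Cufflinks 2.2.1, without their settings. RNA was amplified with SMART-Seq v4 and libraries were unstranded, per the labels' protocols. The signal deposited by the authors per gene is a normalized count, and 100% of values were whole multiples of 1 read per library within 0.01 reads, so reads were recovered. The second table deposited by the authors holds FPKM for 66660 transcripts.

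Genes with a normalized count of 10 or more in 3 libraries (16047) were fitted with limma 3.58.1 (R 4.3.3, trend) on log2(normalized count + 1), a scale that understates changes of low genes. Transcripts with 1 FPKM or more in 3 libraries were fitted on log2(FPKM + 1). The order of levels used log2(FPKM + 0.1). p-values were Benjamini-Hochberg adjusted. edgeR 4.0.16 and DESeq2 1.42.0 were run on recovered reads. The script was tested on simulated data. Named were all Ifitm genes, Calr, sort markers, of each list the called members or else the 4 with the smallest p, the 3 nearest tested genes on each side and the 5 most alike patterns. GENCODE annotation matched 97.9% of genes by symbol. Some listed genes are not reported here. Promoter sequences are RefSeq's, and GENCODE transcripts were aligned with Biopython 1.88.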

Additional observations from a re-analysis of the deposited data

Results flagged for a closer look

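Values of wild-type 4 stood far from those of the other wild-type libraries in 2 of 91 groups tested for an outlying library by Dixon's criterion; chance flags about 1 in 20. The ratio of Ifitm1 to Ifitm2 FPKM was 1.59 to 1.81 in the mutant libraries, 1.61 in wild-type 4, and between 1.0 and 1.04 in the remaining wild-type libraries. The share of Ifitm1 FPKM from Ifitm1-202 was 85.5 to 86.3% in the mutant libraries, 86.2% in wild-type 4, and 82.5 to 82.9% in the remaining wild-type libraries. Both values rest on the same Ifitm1 reads.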

How the results depend on the processing

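Over all genes, the 0 calls of limma became 107 with DESeq2, 3597 with the title series as a covariate, 127 with the length slope, 51 against wild-type 1 and 2 alone, 6828 against wild-type 3 and 4 alone, 6010 within the shared title series and 1022 outside it; leaving out 1 library gave 0 to 0. Ifitm1, Ifitm2 and Ifitm3 kept positive differences over all libraries in every such setting, at 0.93 to 1.38, 0.40 to 0.80 and 0.49 to 1.04 with 1 library left out. The median of the receptor list was 0.062 with the length slope; leaving out wild-type 3 and 4 made it 0.055 and that of the sensors 0.0061, and that of the antiviral effectors -0.095 outside the title series. Against wild-type 1 and 2 the 51 calls became 21 with edgeR, 22 with quantile normalization, 281 with DESeq2, 1 with FPKM and 0 to 769 with 1 library left out; Ifitm3 became -0.080 with quantile normalization, and with 1 library left out Ifitm2 ranged over -0.12 to 0.29 and Ifitm3 over -0.18 to 0.29, Ifitm1 over 0.65 to 0.998. Against wild-type 3 and 4, leaving out 1 library gave 1483 to 8760 calls. Between the wild-type pairs it gave 7100 to 7693 calls, with Ifitm1 at -1.13 to -0.38. Transcript calls were 3 with no filter and 0 to 1 with 1 library left out. With reads per kilobase, Ifitm1 over Ifitm3 became -0.49 and Ifitm7 over Ifitm6 -0.44, while Ifitm3 over Ifitm2 was 0.39 and Ifitm2 over Ifitm7 9.18. The cause was not tested. No paired analysis was possible because the replicate numbers follow accession order and pair no samples. Depth limits Ifitm5, which rests on few reads, and not the abundant members.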
